A study of Mus musculus with 405 samples.

Results

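The tumour suppressor p53 is a transcription factor that is held low in unstressed cells by the ubiquitin ligase MDM2 and that accumulates after DNA damage and other stress. It then raises a core set of genes that arrest the cell cycle, feed back on p53 itself or favour apoptosis, and in postmitotic neurons the apoptotic branch is the best known. The 10 members described here are such genes, chosen by symbol: *Cdkn1a*, *Mdm2*, *Ccng1*, *Bbc3*, *Bax*, *Trp53inp1*, *Sesn1*, *Phlda3*, *Eda2r* and *Zmat3*. All 10 were present among the 13304 genes of the screen table and among the 23893 genes of a count table for pyraclostrobin.

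The cultures were cortical cells from progeny, at embryonic day 15 by the labels and slightly earlier by the study's methods, of C57BL/6J dams and CAST/EiJ males, so every culture was a hybrid of 2 strains. All of them, vehicle included, had received uridine 5'-triphosphate and the antimitotic 5-fluoro-2'-deoxyuridine on day in vitro (DIV) 3, and were exposed on DIV 7 for 24 h before polyadenylated RNA was sequenced. The screen held 49 vehicle libraries and 344 libraries from 297 chemicals, with 1 library each for 282 of the chemicals. Among them were 3 inhibitors of topoisomerase 1 (TOP1), an enzyme whose trapping on DNA causes strand breaks and blocks transcription of long genes: topotecan at 0.3 µM (32 libraries), camptothecin at 0.3 µM (1 library) and irinotecan at 10 µM (1 library). Fenamidone at 10 µM had 2 libraries. The count table held 4 libraries with pyraclostrobin at 0.1 µM and 4 with vehicle.

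Values of the screen are log2 deviations of a gene from its own centre over libraries, so they compare libraries within a gene and carry no level. Topotecan and vehicle each held libraries that stood apart. Topotecan replicates 15 and 22 had means over the members of 0.70 and 0.77, whereas the third highest topotecan library was at 0.19. Vehicle replicate 39 was the lowest vehicle library, with a mean over the members of -0.47 and an *Eda2r* value of -1.60. Totals in the count table ranged from 2409623 to 7833440, and the 2 deepest libraries were both vehicle. Depth in the screen is unknown.

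The members are spread over the genome. In mm9 (NCBIM37, GENCODE vM1 models), *Cdkn1a* spans chr17:29227924-29237667, *Mdm2* chr10:117125944-117147814, *Ccng1* chr11:40562054-40568813 and *Bbc3* chr7:16894965-16903554. *Bax* spans chr7:52717065-52722268, *Trp53inp1* chr4:11083578-11101526 and *Sesn1* chr10:41530380-41628230. *Phlda3* spans chr1:137662696-137665713, *Eda2r* chrX:94529179-94572555 and *Zmat3* chr3:32233718-32264600. They are short genes as a group: their median span was 13.8 kb, against 25.6 kb for 12028 genes of the screen with a model, and none exceeded 100 kb.

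The p53 response element is a pair of half-sites of 10 bases, each made of 3 purines, C, 2 bases that are A or T, G and 3 pyrimidines. The windows 3000 bases to each side of the annotated gene starts were searched for 2 abutting half-sites, with both cores intact and at most 1 mismatch outside them; the pattern is palindromic, so 1 search covers both strands. A pair was found in 0.798% of 12028 genes, and in 3 of the 10 members. These 3 are shown because they are the matched letters behind the name of the group, printed 5′ to 3′ on the strand of the gene with the pair in capitals and 5 flanking bases on each side:
Cdkn1a: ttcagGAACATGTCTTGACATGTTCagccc
Ccng1: ccggaACGCAAGCCCGGGCTAGTCTgcgcc
Zmat3: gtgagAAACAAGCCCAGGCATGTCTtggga
The *Cdkn1a* pair (chr17:29227868-29227897, plus strand) was centred 42 bases upstream of the annotated start. The *Ccng1* pair (chr11:40568433-40568462, minus strand) lay in an intron 365 bases downstream of the start, and the *Zmat3* pair (chr3:32263248-32263277, minus strand) in an intron 1337 bases downstream. Only the *Zmat3* pair had no mismatch, a match held by 0.133% of genes. For the other 7 members these letters were not in the window, which says nothing about binding elsewhere.

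Pyraclostrobin, a strobilurin fungicide that blocks complex III of the mitochondrial respiratory chain, raised 8 of the 10 members, and none fell. Over all 12324 genes tested by edgeR's quasi-likelihood test, 12.1% were higher and 9.22% lower at an adjusted p under 0.01. The median log2 difference of the members was 1.43, against -0.00 over all genes tested. In those 8 genes every pyraclostrobin library lay above every vehicle library, a separation seen in 18.2% of all genes tested. *Bax* and *Sesn1* were not called.

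Among the genes of cell cycle arrest, *Cdkn1a* encodes the CDK inhibitor p21. It stood at 511, 354, 462 and 342 CPM (counts relative to the scaled total of their library) in the pyraclostrobin libraries numbered 428, 702, 703 and 704, and at 201, 126, 124 and 119 CPM in the vehicle libraries of the same numbers. The 4 treated libraries lay above the 4 controls, although vehicle library 428 was well above the other vehicle libraries. The log2 difference was 1.55 ± 0.20 (SE, adjusted p = 0.000202). *Ccng1*, which encodes cyclin G1, had the highest level per length of exon in both groups. It stood at 1488, 967, 1126 and 975 CPM with pyraclostrobin and at 296, 277, 231 and 235 CPM with vehicle, so that the groups were far apart. Its log2 difference was 2.14 ± 0.16 (SE, adjusted p = 9.14e-06).

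A pair of members feed back on p53 or its activity. *Mdm2*, whose product marks p53 for degradation, stood at 151, 116, 134 and 97.9 CPM with pyraclostrobin and at 59.3, 50.4, 42.4 and 49.7 CPM with vehicle. The log2 difference was 1.31 ± 0.16 (SE, adjusted p = 0.000169). *Trp53inp1*, which encodes a nuclear protein that promotes p53 activity, stood at 349, 215, 280 and 215 CPM against 79.2, 88.7, 72.0 and 71.7 CPM, with a log2 difference of 1.77 ± 0.17 (SE, adjusted p = 4.69e-05). Neither pair of groups overlapped. *Zmat3*, which encodes an RNA-binding zinc finger protein, rose less: it stood at 237, 221, 249 and 242 CPM against 120, 145, 133 and 142 CPM. Its spread was small in both groups, and the log2 difference of 0.81 ± 0.11 (SE) was called (adjusted p = 0.000278).

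The members linked to death signalling and survival were divided. *Eda2r*, a receptor of the tumour necrosis factor family, showed the largest rise of the 10, with 189, 83.4, 105 and 91.6 CPM against 23.8, 21.3, 19.6 and 18.2 CPM. The log2 difference was 2.51 ± 0.26 (SE, adjusted p = 5.73e-05), and pyraclostrobin library 428 was the highest. *Phlda3*, which encodes a repressor of the kinase AKT, stood at 170, 117, 148 and 114 CPM against 76.7, 20.9, 29.9 and 31.4 CPM. Its log2 difference was 1.81 ± 0.33 (SE, adjusted p = 0.00177).

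By contrast, *Bbc3*, which encodes the BH3-only protein PUMA that triggers apoptosis in neurons, moved little. It stood at 50.4, 60.2, 61.4 and 57.8 CPM with pyraclostrobin and at 40.8, 35.3, 42.1 and 40.8 CPM with vehicle, a log2 difference of 0.53 ± 0.13 (SE, adjusted p = 0.00863). The groups did not overlap, but the call was lost in 6 of the 8 fits that left out 1 library, with adjusted p-values over the 8 fits of 0.00388 to 0.0407. *Bax*, the pore-forming effector of the same pathway, stood at 80.9, 59.1, 67.8 and 65.3 CPM against 78.5, 32.6, 38 and 34.7 CPM. Its log2 difference of 0.59 ± 0.26 (SE) was not called (adjusted p = 0.105), and vehicle library 428 lay inside the treated range. Without that library the log2 difference was 0.95 and was called (adjusted p = 0.00016).

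*Sesn1*, which encodes a sestrin that restrains mTORC1, stood at 27, 30.3, 30.7 and 24.8 CPM with pyraclostrobin and at 28, 26.4, 28 and 24.4 CPM with vehicle. The groups overlapped fully, and the log2 difference was 0.08 ± 0.14 (SE, adjusted p = 0.709). Its paralogue *Sesn2*, which is no member, went from 34.5 ± 1.83 to 120 ± 31.9 CPM (SD, n = 4), a log2 difference of 1.80 (adjusted p = 5.07e-05).

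Per length of exon, the order of the members changed between the groups. The lengths came from GENCODE models and the counts from RefSeq exons, so levels are only roughly comparable between members. With vehicle, *Ccng1* (73.9 CPM per kb) and *Cdkn1a* (64.2 CPM per kb) were highest and *Eda2r* (3.52 CPM per kb) was lowest. With pyraclostrobin, *Ccng1* reached 324 CPM per kb and *Cdkn1a* 188 CPM per kb. *Sesn1*, at 8.02 CPM per kb with vehicle and 8.47 CPM per kb with pyraclostrobin, became the lowest of the 10.

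**Figure D1:**
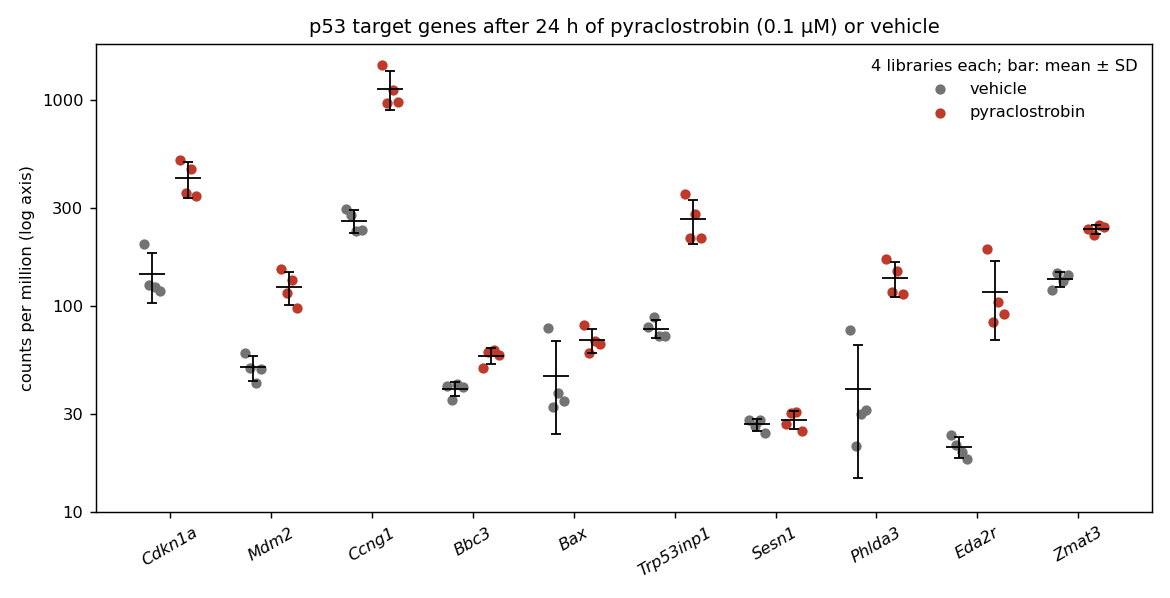
CPM (log axis) of each member in 4 vehicle libraries (grey) and 4 pyraclostrobin libraries (red), with mean and SD as black bars. The pyraclostrobin points lie above all vehicle points in 8 members, while those of *Sesn1* overlap around 24.4 to 30.7 CPM and 1 vehicle point of *Bax* lies at 78.5 CPM among the treated ones.

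Other genes of the pathway in the same cultures were read from lists. Of 35 further p53 targets tested, 18 rose and 1 fell, where 12.1% of all genes tested were higher and 9.22% lower. Their median log2 difference was 1.08 against -0.00 over all genes tested. The rises included *Gdf15*, a stress cytokine (2.84), *Tnfrsf10b*, a death receptor (2.74), *Dcxr* (2.51), *Fas*, a death receptor (2.30), *Ckap2* (2.18), *Btg2*, an antiproliferative factor (1.94), and *Pmaip1*, which encodes the BH3-only protein NOXA (1.55). *Plk3* was the gene that fell (-1.06), *Gadd45a* was at 1.79 without a call (adjusted p = 0.0184), and *Plk2* was at -0.07 (adjusted p = 0.689).

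Of 17 genes for p53 and its regulators, 2 rose, a share near the 12.1% of all genes tested. *Trp53* itself went from 10.7 ± 2.11 to 30.8 ± 2.45 CPM (SD, n = 4, log2 difference 1.50, adjusted p = 0.000154), and *Brca1* rose by 1.85. *Mdm4*, the partner of MDM2 (0.38, adjusted p = 0.374), and *Ppm1d*, a phosphatase that acts on p53 (0.30, adjusted p = 0.222), were not called. In the BCL-2 family 4 of 11 rose, namely *Pmaip1*, *Bcl2* (1.09), *Bak1* (0.92) and *Mcl1* (0.69). *Bcl2l1* (0.13, adjusted p = 0.383) and *Hrk* (0.06, adjusted p = 0.770) were not called. Of 15 CDK inhibitors and cell cycle genes bound by the DREAM repressor complex, 6 rose and none fell, among them *Cdk1* (2.66), *Ccnb2* (2.38), *Birc5* (2.38), *Top2a* (2.26) and *Cdc20* (2.17), which drive division. With only the 2 numbers whose vehicle library was as shallow as the pyraclostrobin libraries (428 and 702), edgeR called 0 of 12221 genes and no member, with 2617 genes and 7 members at an unadjusted p under 0.05. That fit held 2 libraries in each group, and its log2 differences were 2.07 for *Ccng1*, 2.56 for *Eda2r*, 1.72 for *Trp53inp1* and 1.25 for *Mdm2*, close to those with all 8 libraries.

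Cell type markers moved in the same libraries. The summed level of 10 neuronal markers was 3813 to 5033 CPM with pyraclostrobin and 7946 to 10037 CPM with vehicle, and 7 of the 10 fell. The 7 markers of fibroblasts and mural cells summed to 1198 to 1659 CPM against 96.0 to 209 CPM, and 6 of the 7 rose. The 6 microglial markers summed to 52.7 to 87.9 CPM against 14.2 to 20.9 CPM. The 6 astrocyte markers reached 806 to 2798 CPM against 617 to 912 CPM, with none of the 5 tested called. The 6 markers of the oligodendrocyte lineage summed to 190 to 305 CPM against 93.8 to 194 CPM, and 4 endothelial markers to 15.0 to 21.5 CPM against 4.29 to 9.23 CPM, with *Cldn5* at 0 in every library. Fewer cells of a type and less RNA per cell cannot be told apart in these libraries, and the part of cell composition in the rise of the members was not tested.

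In the screen, 10 chemicals that block complex I (rotenone, pyridaben, fenpyroximate and tebufenpyrad) or the Qo site of complex III (azoxystrobin, fluoxastrobin, pyraclostrobin, trifloxystrobin, famoxadone and fenamidone) were set against the 284 other chemicals, with the 3 TOP1 inhibitors left out. The name respiratory chain inhibitors is used here for these 10 only, and any other chemicals that act on the chain stayed among the 284. By limma, 7 of the 10 members were higher and none was lower, where 9.8% of all genes were higher and 16.8% lower at an adjusted p under 0.05. The 7 were *Ccng1*, *Eda2r*, *Phlda3*, *Trp53inp1*, *Mdm2*, *Cdkn1a* and *Zmat3*. The pyraclostrobin library of the screen is also library 428 of the count table. Without number 428 the counts alone gave 9 members higher, *Bax* included, where 19.7% of the 12441 genes tested were higher.

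*Ccng1* showed the clearest difference. Its chemical medians over the 10 inhibitors had a lowest value of 0.02, a median of 0.49 and a highest value of 0.73, whereas the other 284 chemicals ran from -0.40 through 0.01 to 0.41. The 5 highest inhibitors therefore lay above every other chemical, and the mean difference was 0.39 ± 0.05 on the log2 scale (SE, adjusted p = 4.5e-13). For *Eda2r* the inhibitors ran from -0.21 through 0.50 to 0.82 and the other chemicals from -0.62 through 0.05 to 0.81. These ranges overlapped, with a difference of 0.37 ± 0.08 (SE, adjusted p = 0.000161).

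*Phlda3* differed by 0.33 ± 0.08 (adjusted p = 0.000302), *Trp53inp1* by 0.30 ± 0.06 (adjusted p = 6.5e-06), *Mdm2* by 0.29 ± 0.05 (adjusted p = 2.23e-06), *Cdkn1a* by 0.21 ± 0.06 (adjusted p = 0.00138) and *Zmat3* by 0.17 ± 0.04 (adjusted p = 0.000272), all as log2 difference ± SE. *Bbc3* (0.11 ± 0.10, adjusted p = 0.479), *Bax* (0.09 ± 0.09, adjusted p = 0.534) and *Sesn1* (0.03 ± 0.08, adjusted p = 0.863) were not called. These are the 3 members that moved least with pyraclostrobin in the counts. All 7 calls held when any 1 of the 10 inhibitors was left out. Rotenone, pyridaben, fenpyroximate, pyraclostrobin, trifloxystrobin, famoxadone and fenamidone belong to a chemical cluster of the study. For that cluster the study reports RNA integrity that was high on average but significantly lower than in vehicle. The part of RNA quality in these differences was not tested.

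The inhibitors were far from uniform. By the mean over members, fenpyroximate at 0.1 µM (0.45), trifloxystrobin at 10 µM (0.42), fenamidone at 10 µM (0.42), pyraclostrobin at 0.1 µM (0.41) and famoxadone at 10 µM (0.32) lay above the highest vehicle library, which was at 0.24. Azoxystrobin at 0.1 µM was at -0.02, within the vehicle range. Azoxystrobin and pyraclostrobin are both strobilurins and share the dose of 0.1 µM, with 2 libraries and 1 library, and their medians stand side by side without a test: *Ccng1* was at 0.07 and 0.64, *Eda2r* at -0.09 and 0.82, and *Phlda3* at -0.20 and 0.63. With the 4 complex I inhibitors alone against the other chemicals, only *Ccng1* (0.31, adjusted p = 0.00113) and *Mdm2* (0.27, adjusted p = 0.0272) were called, where 1.07% of all genes were higher. Among these 4, rotenone at 0.01 µM had *Ccng1* at 0.41 and *Eda2r* at 0.45 but *Bbc3* at -0.23. Whether complex I and complex III inhibitors differ was not tested.

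Other lists of the pathway were read in the same comparison, where 9.8% of all genes were higher and 16.8% lower. Of 36 further p53 targets, 15 were higher and 2 lower, with *Tnfrsf10b* (0.60), *Dcxr* (0.59), *Gdf15* (0.55), *Ckap2* (0.47), *Perp* (0.44), *Pmaip1* (0.38), *Btg2* (0.34) and *Sesn2* (0.29) among the former and *Ddit4* (-0.28) and *Plk2* (-0.09) as the latter. *Fas* (0.38, adjusted p = 0.115) and *Gadd45a* (0.33, adjusted p = 0.171) were not called. Of 19 genes for p53 and its regulators, 1 was higher and 3 were lower, which are no larger shares than over all genes. *Trp53* was higher (0.30, adjusted p = 0.0281), *Rpl5* (-0.20), *Trp53bp1* (-0.18) and *Usp7* (-0.12) were lower, and *Mdm4* (0.04) and *Ppm1d* (0.11) were not called. In the BCL-2 family 5 of 12 were higher, namely *Pmaip1*, *Bcl2* (0.32), *Bak1* (0.25), *Mcl1* (0.19) and *Bcl2l2* (0.11), and *Bcl2l1* (0.07) and *Hrk* (0.05) were not called. Of 16 cell cycle genes only *Mki67* was higher (0.30).

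**Figure D2:**
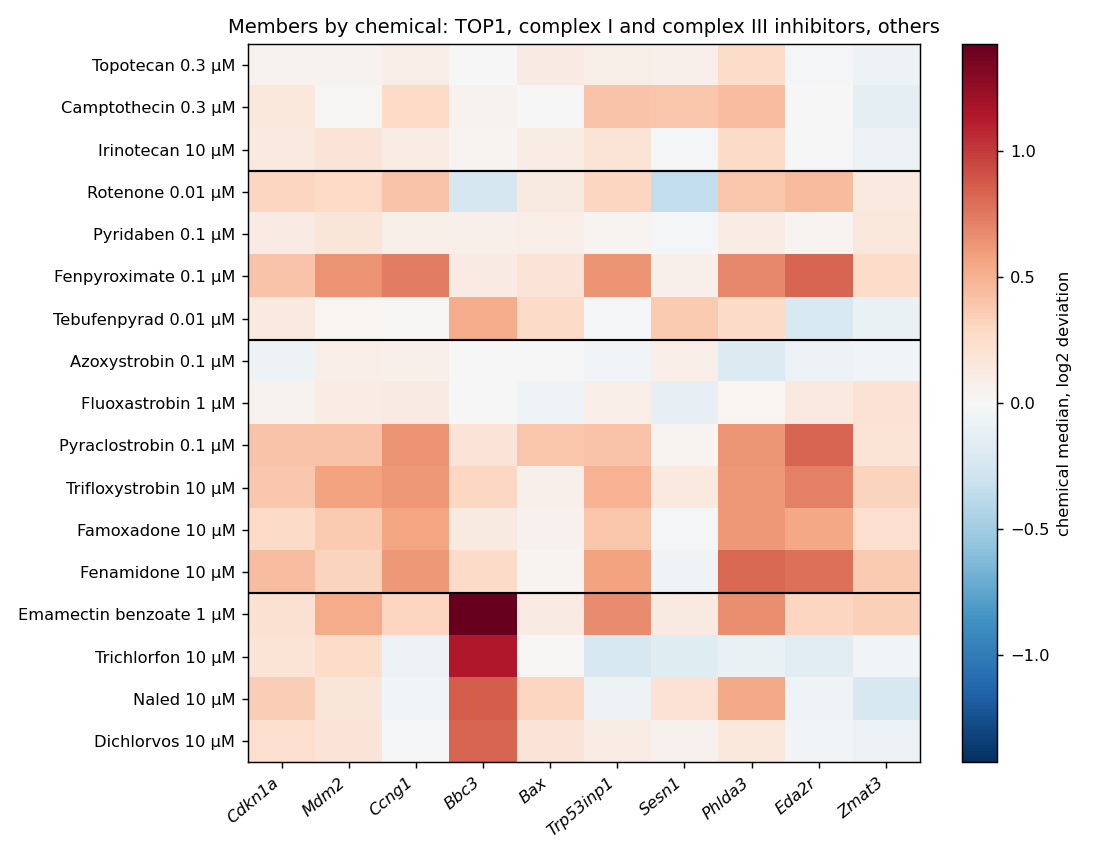
Chemical medians of the members as log2 deviations (symmetric colour scale) for 3 TOP1 inhibitors, 4 complex I inhibitors, 6 complex III inhibitors and 4 other chemicals, in blocks from top to bottom. Fenpyroximate and the last 4 complex III inhibitors are red in *Ccng1*, *Phlda3* and *Eda2r*, whereas the bottom block is red mainly in *Bbc3*, up to 1.42.

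Fenamidone alone, an imidazolinone fungicide, was compared with the 49 vehicle libraries. Of the 10 members, 6 were higher and none was lower, where limma called 4.58% of all genes higher and 11.1% lower. *Phlda3* was at 0.56 and 1.07 in replicates 1 and 2, against -0.72, -0.03 and 0.49 as lowest, median and highest vehicle values, so both replicates lay above every vehicle library. Its difference was 0.83 ± 0.18 on the log2 scale (SE, adjusted p = 0.000613). *Ccng1* was at 0.51 and 0.73 against -0.77, 0.00 and 0.43 in vehicle, again without overlap, and differed by 0.62 ± 0.13 (SE, adjusted p = 0.00027). *Eda2r* was at 0.57 and 0.99, and here replicate 1 lay below the highest vehicle value of 0.88.

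The differences of the other called members were 0.79 for *Eda2r* (adjusted p = 0.0169), 0.58 for *Trp53inp1* (adjusted p = 0.0076), 0.53 for *Cdkn1a* (adjusted p = 0.000935) and 0.34 for *Zmat3* (adjusted p = 0.0102). *Bbc3* (0.43, adjusted p = 0.0686) and *Mdm2* (0.30, adjusted p = 0.0883) missed the threshold, *Bax* was at 0.03 and *Sesn1* at -0.03. Replicate 2 was the higher in each of the 10 members. Without it no member was called, where 0.504% of all genes were higher, and without replicate 1 there were 5, where 2.93% of all genes were higher. Of 36 other p53 targets, 7 were higher and none lower with both replicates, where 4.58% of all genes were higher and 11.1% lower. The higher ones included *Gdf15* (1.41), *Dcxr* (1.19), *Ephx1* (0.77), *Btg2* (0.65), *Abhd4* (0.61) and *Pmaip1* (0.55), while *Sesn2* (0.39, adjusted p = 0.142), *Fas* (0.94, adjusted p = 0.0806), *Gadd45a* (0.29) and *Plk2* (-0.04) were not called. *Trp53* was at 0.35 (adjusted p = 0.374), with *Mdm4* at 0.02 and *Ppm1d* at 0.08, and *Trp53bp1* (-0.38), *Rpl5* (-0.38) and *Usp7* (-0.31) were lower. Among 12 genes of the BCL-2 family, *Mcl1* (0.30) and *Pmaip1* were called, and *Bcl2* (0.27), *Hrk* (0.16) and *Bcl2l1* (0.13) were not.

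The fibroblast and mural markers stood at 1.09 and 1.11 as a mean in the 2 fenamidone libraries, above the vehicle range of -0.67 to 0.64, and the neuronal markers at -1.09 and -0.72, below the vehicle range of -0.16 to 0.40. Over the libraries of all 10 inhibitors these means were 0.08 to 1.49 and -1.09 to 0.14. Of the astrocyte markers, 3 of 5 were higher with fenamidone and 3 of 5 with the 10 inhibitors, and of the oligodendrocyte lineage markers 2 of 5 and 1 of 5. The mean of 3 microglial markers was 0.41 and 1.54 in the fenamidone libraries, against -0.93 to 0.80 in vehicle, with none of the 3 called. Their part in the differences of the members was not tested. By immunostaining, the study saw no significant change in the numbers of neurons, astrocytes or microglia with fenamidone at the same dose. Other cell types were not counted there.

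Sizes in the screen and in the counts cannot be set equal. For library 428, which is on both scales, *Ccng1* differed from its vehicle by 2.33 in log2 CPM and by 0.64 from the vehicle median in the screen, and *Eda2r* by 2.96 and 0.82. Over 12188 genes the slope of the screen difference on the count difference was 0.31 (Pearson r = 0.71 across genes, which are not independent replicates). *Bax* was at 0.04 in the counts and 0.34 in the screen, and *Bbc3* at 0.30 and 0.32. The controls differ as well as the scales. Vehicle library 428 was high in *Bax*, at 78.5 CPM against 32.6 to 38 CPM in the other vehicle libraries of the counts. The sign differed for *Sesn1*, at -0.06 and 0.05.

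Topotecan has a known route to p53, through DNA breaks, and had the most libraries of any chemical, but the members moved little with it. Of the 10, 3 were higher than vehicle and 1 was lower, in a comparison where limma called 24.9% of all genes higher and 20.9% lower at an adjusted p under 0.05. The median difference of the members was 0.10, against 0.03 over all genes tested. The share of members higher is near that of all genes.

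*Phlda3* was at -0.43, 0.27 and 1.22 (lowest, median, highest of 32 topotecan libraries) and at -0.72, -0.03 and 0.49 in the 49 vehicle libraries. The groups overlapped widely, with 2 topotecan libraries above the vehicle range and 28 above the vehicle median, and the difference was 0.29 ± 0.06 (SE, adjusted p = 7.66e-05). *Bbc3* was at -0.52, 0.01 and 1.24 against -0.71, -0.14 and 0.39, and differed by 0.23 ± 0.06 (SE, adjusted p = 0.00109). *Cdkn1a* was at -0.38, 0.05 and 1.48 against -0.42, -0.07 and 0.23, a difference of 0.20 ± 0.06 (SE, adjusted p = 0.00215), with 3 of 32 libraries above the vehicle range. *Zmat3* was at -0.30, -0.07 and 0.66 against -0.19, 0.01 and 0.48, and was lower by 0.08 (difference -0.08 ± 0.03, SE, adjusted p = 0.048).

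The others were not called: *Bax* (0.12, adjusted p = 0.0627), *Trp53inp1* (0.10, adjusted p = 0.11), *Sesn1* (0.10, adjusted p = 0.0628), *Ccng1* (0.08, adjusted p = 0.138), *Mdm2* (0.06, adjusted p = 0.219) and *Eda2r* (-0.07, adjusted p = 0.448). Among all 297 chemicals, the topotecan median ranked 61 for *Phlda3*, 139 for *Cdkn1a* and 147 for *Bbc3*, counted from the highest. The called members *Cdkn1a* and *Bbc3* thus stood above vehicle but in the middle of the chemicals, since the median of the other chemicals was 0.04 and -0.00, above the vehicle medians of -0.07 and -0.14.

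Replicates 15 and 22 carried much of the upper end. In them *Cdkn1a* was at 1.09 and 1.48, *Phlda3* at 1.15 and 1.22, *Bbc3* at 0.96 and 1.24, *Trp53inp1* at 0.83 and 0.79, and *Ccng1* at 0.77 and 0.63. *Zmat3*, low in most topotecan libraries, was at 0.33 and 0.66 there. *Sesn1* was at 0.43 and 0.08, and the latter was close to the topotecan median of 0.08.

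Other p53 targets were also high in these libraries: *Pmaip1* was at 1.35 and 0.90 against a topotecan median of -0.38, and *Sesn2* at 1.53 and 1.79 against -0.08. *Fos*, an immediate early gene that is on none of the lists and was looked at after these values were seen, was at 1.36 and 2.49 against -0.76. *Nrxn3*, a long neuronal gene, was at -2.45 and -2.54, near the topotecan median of -2.25 and far below the vehicle median of -0.03. The neuronal markers stood at -0.60 and -0.71 as a mean, in the lower part of the topotecan range of -0.71 to -0.01. Without these libraries the same 4 members were called: *Phlda3* at 0.22 (adjusted p = 0.000324), *Bbc3* at 0.16 (adjusted p = 0.00463), *Cdkn1a* at 0.12 (adjusted p = 0.00364) and *Zmat3* at -0.12 (adjusted p = 0.000379). The difference of *Cdkn1a* shrank by more than 1.5 times. Without vehicle replicate 39, *Zmat3* was no longer called (-0.07, adjusted p = 0.0683).

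**Figure D3:**
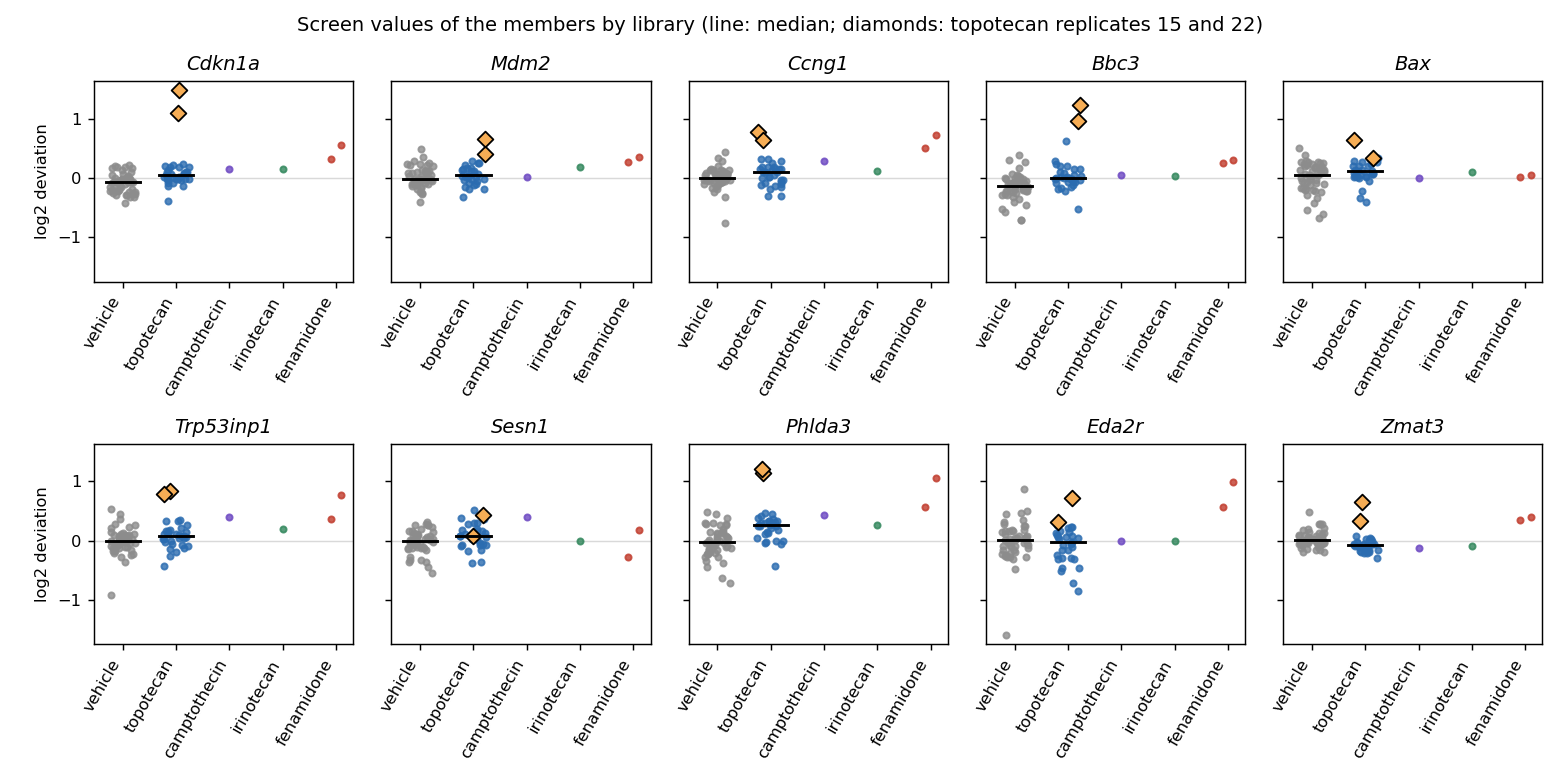
Log2 deviation of each member in every library of vehicle (49), topotecan (32), camptothecin (1), irinotecan (1) and fenamidone (2), with black lines at the medians of the first 2 groups and diamonds for topotecan replicates 15 and 22. The diamonds stand clear of the other topotecan points in *Cdkn1a*, *Phlda3* and *Bbc3*, and the topotecan and vehicle clouds overlap in all 10 panels.

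In the lists, topotecan gave 11 higher and 4 lower of 36 other p53 targets, in the comparison with 24.9% of all genes higher and 20.9% lower. *Def6* (0.48), *Perp* (0.44), *Psrc1* (0.33), *Xpc* (0.23), *Cgref1* (0.20) and *Plk2* (0.10) were higher, and *Trp53inp2* (-0.29), *Pmaip1* (-0.27), *Sulf2* (-0.10) and *Zfp365* (-0.09) were lower. The classical targets *Gadd45a* (0.21, adjusted p = 0.0819), *Btg2* (0.01), *Sesn2* (-0.02), *Fas* (0.02) and *Gdf15* (0.05) were not called, and the signs of *Btg2*, *Fas* and *Gdf15* turned without replicates 15 and 22. *Trp53* was higher by 0.28 ± 0.08 (SE, adjusted p = 0.00272), as were *Mdm4* (0.11) and *Rpl5* (0.10), and *Ppm1d* was at -0.05 (adjusted p = 0.482). Among the regulators that were lower were *Brca1* (-0.28), *Crebbp* (-0.26), *Rfwd2* (-0.17) and *Atm* (-0.12).

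In the BCL-2 family 8 of 12 genes were higher and 2 lower with topotecan, where 24.9% of all genes were higher and 20.9% lower. *Bcl2l11*, which encodes the BH3-only protein BIM, was higher by 0.47 ± 0.06 (SE, adjusted p = 3.69e-10), followed by *Bok* (0.41), *Bid* (0.29), *Hrk* (0.25), *Bad* (0.18), *Mcl1* (0.18) and *Bcl2l1* (0.10), and *Bcl2* was lower (-0.20). Of 16 cell cycle genes none was higher and 6 were lower, including *Aurkb* (-0.72), *Cdk1* (-0.64), *Ccnb1* (-0.52), *Mki67* (-0.49) and *Top2a* (-0.48). Of the cell type markers, 8 of 10 neuronal and 5 of 5 astrocyte genes were lower, and the astrocyte mean was -1.0 to -0.04 against -0.69 to 0.59 in vehicle. As background to these directions, genes over 100 kb had a median difference of -0.23 with topotecan and shorter genes of 0.05.

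Camptothecin and irinotecan, a natural alkaloid and a prodrug related to topotecan, had 1 library each. Camptothecin shares the 0.3 µM dose with topotecan, and none of the 10 members was called between them by limma, which treats the lone library as varying like the others. No gene of the 13304 was called in either direction (0% higher and 0% lower), with 433 at an unadjusted p under 0.05, none of them a member. The estimates for camptothecin minus topotecan ran from -0.12 for *Bax* (95% interval -0.59 to 0.36) to 0.32 for *Sesn1* (95% interval -0.09 to 0.72). The interval for *Cdkn1a* was -0.46 to 0.52, so that a true difference anywhere inside these bounds is compatible with the values.

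Against vehicle, camptothecin gave no member a call, where 1.83% of all genes were higher and 5.07% lower by limma and 2273 genes and 1 member (*Sesn1*) had an unadjusted p under 0.05, but several members lay near the top of the vehicle range. *Sesn1* at 0.40 was above all 49 vehicle libraries, *Trp53inp1* at 0.40 and *Phlda3* at 0.44 were above 47 of 49, and *Ccng1* at 0.28 was above 46. *Cdkn1a* and *Bbc3* were above 43, *Mdm2* above 29, *Bax* and *Eda2r* above 23 and *Zmat3* above 6. The share of all genes this high in the vehicle range was not counted. The differences from vehicle were 0.42 for *Sesn1* (adjusted p = 0.262), 0.46 for *Phlda3* (adjusted p = 0.421) and 0.40 for *Trp53inp1* (adjusted p = 0.401). Among 297 chemicals camptothecin ranked 7 for *Trp53inp1*, 12 for *Ccng1*, 14 for *Sesn1* and 21 for *Phlda3*, yet 82 for *Cdkn1a* and 155 for *Mdm2*.

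Irinotecan, used at 10 µM and so not matched in dose, gave no member a call either. Limma called 0% of genes higher and 0.015% lower, with 522 genes at an unadjusted p under 0.05, none of them a member. *Cdkn1a* and *Bbc3* were above 43 of 49 vehicle libraries, *Phlda3* at 0.27 and *Trp53inp1* at 0.19 above 42, and *Mdm2* at 0.19 above 40. *Ccng1* was above 38, *Bax* above 29, *Sesn1* and *Eda2r* above 23 and *Zmat3* above 7. How many of all genes stood this high was not counted. The mean over members was 0.16 for camptothecin, 0.09 for irinotecan and 0.08 for the average of the topotecan libraries, which was 0.04 without replicates 15 and 22.

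Across all other chemicals, members left the vehicle range upwards more often than genes in general. Of 2940 pairs of a member and a chemical, 4.52% lay above the highest vehicle library and 1.16% below the lowest, against 2.07% and 2.67% over all genes. Most of these pairs came from *Cdkn1a*, with 38 of 294 chemicals above the range, *Bbc3* with 33, *Sesn1* with 27 and *Phlda3* with 15. *Eda2r* and *Zmat3* had none above it, and 18 chemicals lay below it for *Zmat3*. Vehicle replicate 39 set 1 end of the range for both genes, and without it 6 chemicals were above the range for *Zmat3* and 10 below it for *Eda2r*.

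In all, 9 chemicals had at least 3 members above the vehicle range. Fenpyroximate had 5, and fenamidone, trifloxystrobin, emamectin benzoate at 1 µM and chlorothalonil at 1 µM had 4 each. Pyraclostrobin, famoxadone, naled and metsulfuron had 3. The share of all genes above the range was not counted for each chemical, so whether these counts are unusual for a given chemical is unknown. Without vehicle replicate 39 the highest vehicle value of *Zmat3* was 0.29, so that fenamidone, trifloxystrobin and emamectin benzoate also had 5, and 10 chemicals had at least 3. By the mean over members, emamectin benzoate, an avermectin insecticide, was highest of all (0.47), with *Bbc3* at 1.42, *Trp53inp1* at 0.67, *Phlda3* at 0.66, *Mdm2* at 0.53 and *Zmat3* at 0.34. It had 1 library, so these values have no replicate check. The 5 lowest means were those of dichlorprop (-0.31), methylene bis(thiocyanate) (-0.26), metalaxyl (-0.23), flutolanil (-0.22) and linuron (-0.21), all within the range of the 49 vehicle libraries. That range had its lower end at vehicle replicate 39, and without this library all 5 lay below the lowest vehicle mean of -0.20.

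**Figure D4:**
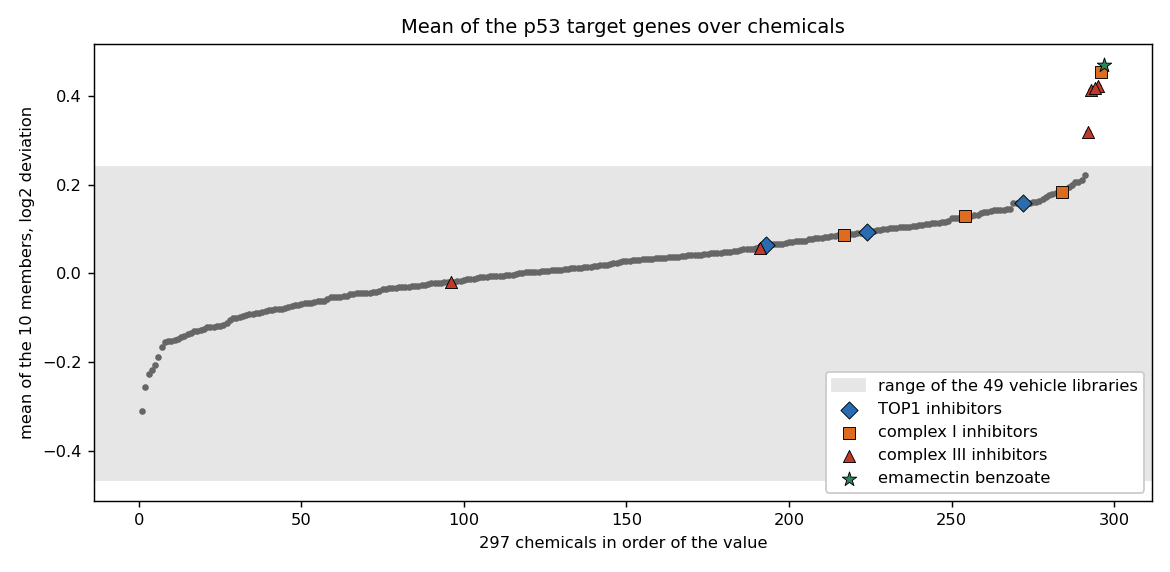
Mean of the 10 members (log2 deviation of chemical medians) for 297 chemicals in ascending order, with the range of the 49 vehicle libraries in grey (-0.47 to 0.24). The 6 chemicals above the grey band are emamectin benzoate and 5 respiratory chain inhibitors, and the 3 TOP1 inhibitors lie inside it.

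The chemicals at the extremes differed from member to member. *Ccng1* was led by fenpyroximate (0.73), pyraclostrobin (0.64) and fenamidone (0.62), and was lowest with chlorpyrifos-methyl (-0.40), linuron (-0.38) and dichlorprop (-0.34). *Eda2r* was led by fenpyroximate (0.82), pyraclostrobin (0.82) and S-bioallethrin (0.81), with methylene bis(thiocyanate) (-0.62), triticonazole (-0.56) and dicofol (-0.53) lowest. *Mdm2* was led by fenpyroximate (0.64), trifloxystrobin (0.57) and chlorothalonil (0.55), and was lowest with metalaxyl (-0.44), flutolanil (-0.42) and flumiclorac-pentyl (-0.38). These 3 genes shared fenpyroximate as their highest chemical.

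*Phlda3* was led by fenamidone (0.81), fenpyroximate (0.68) and emamectin benzoate (0.66), with malathion (-0.86), imazamox (-0.59) and methylene bis(thiocyanate) (-0.55) lowest. *Trp53inp1* was led by emamectin benzoate (0.67), fenpyroximate (0.64) and propazine (0.62), with sulfentrazone (-0.47), thiophanate (-0.46) and azinphos-methyl (-0.44) lowest. *Zmat3* had the narrowest range of the 10, from fenamidone (0.37), emamectin benzoate (0.34) and monocrotophos (0.33) down to EPTC (-0.33), methidathion (-0.31) and cyproconazole (-0.31). *Cdkn1a* was led by none of these but by the pyrethroid fenpropathrin (0.56), ethalfluralin (0.47) and niclosamide (0.45), and was lowest with linuron (-0.49), hexythiazox (-0.44) and dibutyl phthalate (-0.40).

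*Bbc3* spanned the widest range, from 1.42 to -0.92, and its leaders were another set. After emamectin benzoate came trichlorfon (1.14), naled (0.86) and dichlorvos (0.83), all at 10 µM and all above the highest vehicle value of 0.39. These 3 are organophosphates related through dichlorvos, and each had 1 library. In them *Ccng1* was at -0.09, -0.04 and -0.03 and *Eda2r* at -0.16, -0.05 and -0.04, none outside the vehicle range. Naled was above that range in *Phlda3* (0.54) and *Cdkn1a* (0.35), and dichlorvos in *Cdkn1a* (0.24). High *Bbc3* was not limited to organophosphates. Close behind dichlorvos came bifenthrin at 10 µM (0.82) and fluazinam at 0.1 µM (0.77), which belong to other classes and also exceeded the highest vehicle value. The lowest *Bbc3* values came with imazamox (-0.92), prometon (-0.69) and diuron (-0.62).

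*Bax* was led by thiamethoxam (0.81), dazomet (0.65) and methoxychlor (0.57) and was lowest with propamocarb hydrochloride (-0.998), difenoconazole (-0.92) and lindane (-0.91). *Sesn1* was led by methamidophos (0.62), dicrotophos (0.59) and triclosan (0.56), with tribufos (-0.80), quizalofop-ethyl (-0.78) and fluroxypyr-meptyl (-0.71) lowest. Neither gene had a respiratory chain inhibitor among its extremes, which for every member were taken without the TOP1 inhibitors.

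Over the 297 chemical medians the members split accordingly. *Ccng1* ran with *Trp53inp1* (Spearman rho = 0.61) and with *Eda2r* (rho = 0.60), and *Trp53inp1* with *Eda2r* (rho = 0.49). Without the TOP1 inhibitors and the named complex I and Qo site inhibitors these were 0.58, 0.59 and 0.47 over 284 chemicals. *Bbc3* had rho of -0.06 with *Ccng1* and -0.04 with *Eda2r*, *Sesn1* had rho between -0.10 and 0.09 with each other member, and *Bax* and *Zmat3* ran opposite (rho = -0.27). These values are descriptions across chemicals whose libraries share culture and sequencing batches.

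**Figure D5:**
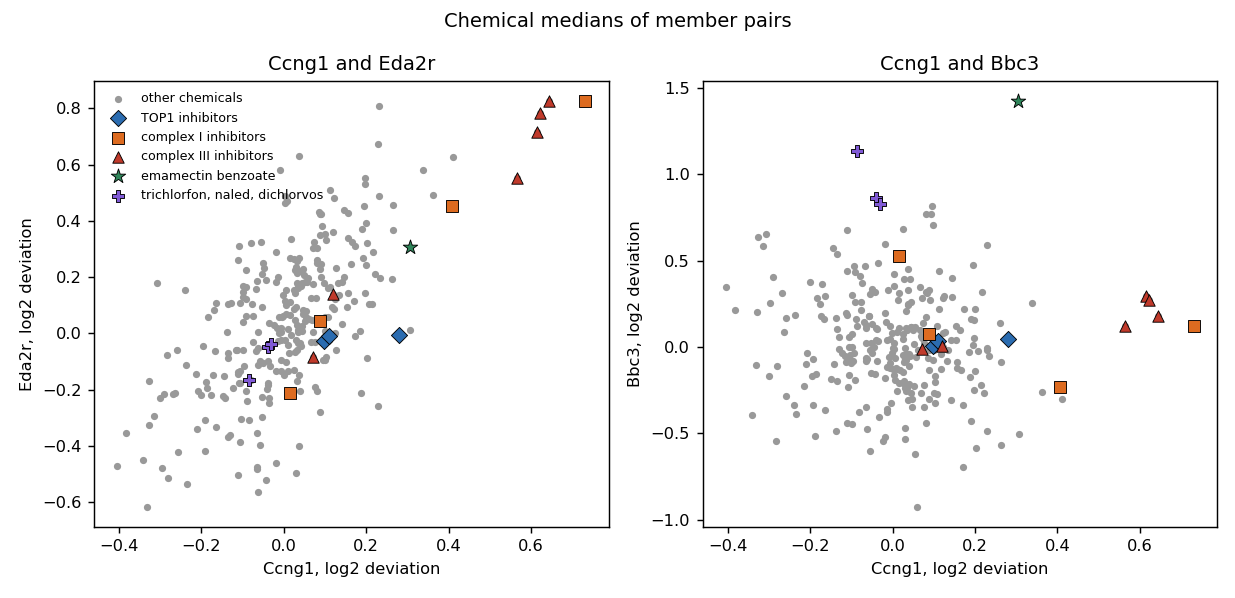
Chemical medians (log2 deviation) of *Eda2r* (left) and *Bbc3* (right) against *Ccng1* for 297 chemicals, with TOP1 inhibitors, complex I and III inhibitors, emamectin benzoate and 3 organophosphates marked. The respiratory chain inhibitors reach the upper right with *Eda2r* (0.82), whereas on the right panel they reach at most 0.53 in *Bbc3* and the organophosphates lie at 0.83 to 1.14 with *Ccng1* near 0.

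The genes outside the group whose pattern was most like the mean of the members over 297 chemicals were *Sparc* (rho = 0.65), *Cnn3* (0.62), *Pea15a* (0.62), *Serpinh1* (0.61) and *Vim* (0.60), and the same 5 led without the TOP1 inhibitors (0.65 to 0.60). The mean of the members had a rho of -0.41 with the mean of the neuronal markers and of 0.36 with that of the fibroblast and mural markers over 294 chemicals. The latter was highest for *Ccng1* (0.49) and near 0 for *Zmat3* (-0.00), *Sesn1* (-0.01) and *Bbc3* (-0.04). The part of cell composition in these patterns was not tested.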

How the data were processed

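Embryonic mouse cortical cultures were profiled by RNA-seq in 405 samples. Per the study's methods and the labels, reads passed TagDust, were mapped by TopHat (mm9 build) and were counted by the authors over RefSeq exons joined by symbol. For pyraclostrobin the authors deposited raw counts per gene. For the screen the authors deposited log10 values, made from RPKM by quantile normalization, centring of each gene on its median, and a mixed model ANOVA that took out effects of culture and sequencing run, so batches can no longer be examined there. The values were multiplied to the log2 scale. A table for sulforaphane was not used, because its 6 columns share 1 name and could not be given to samples.

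Screen comparisons used limma 3.58.1 in R 4.3.3 (variance trend, 13304 genes, threshold 0.05). Vehicle and the 3 TOP1 inhibitors entered 1 fit, and fenamidone and vehicle another. Chemicals entered as the median of their libraries where sets of chemicals were compared. Counts used edgeR 4.0.16 (TMM, at least 10 counts in at least 4 libraries, quasi-likelihood test, threshold 0.01). Adjustment was by Benjamini-Hochberg over all genes tested, and tests were two-sided. SE came from the fits, and both procedures were tested on simulated data. Alternatives included DESeq2 1.42.0. CPM used TMM-scaled totals. Labels name no separate litters or plates, so p-values measure the spread between these libraries. Sequence and positions came from NCBIM37 with GENCODE vM1. Tables were handled with Python 3.11.15 and pandas 2.3.3.

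The members, lists and rules were chosen with earlier results of these data known. Named were all members, a set of p53 genes whatever their change, up to 5 called genes in each direction of each list, 3 chemicals at each end for each member, and 5 at each end of the mean. Not every gene that meets the rule is printed.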

Additional observations from a re-analysis of the deposited data

Results flagged for a closer look

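Among 30 sets of 4 libraries, 2 held a library far from the others by Dixon's ratio, and chance marks about 1 in 20 such sets. Both were vehicle library 428 of the count table, with *Cdkn1a* at 201 CPM (other vehicle libraries 119 to 126) and *Bax* at 78.5 CPM (others 32.6 to 38). By edgeR, without this library 9 of the 10 members were called higher with pyraclostrobin, where 17.6% of the 12189 genes tested were higher.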

How the results depend on the processing

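Counts of members higher stayed within 1.5 times their main value under all alternatives but 3: with pyraclostrobin, 0 members were higher with numbers 428 and 702 only; with respiratory chain inhibitors, 2 with complex I inhibitors only; and with fenamidone, 0 to 5 when 1 of its libraries was left out (6 without vehicle replicate 39). Leaving out 1 pyraclostrobin or vehicle library gave 7 to 9 members higher, where 8.3% to 17.6% of the genes tested were higher. The upper share came without vehicle library 428. With topotecan, the count of members lower went to 0 at a threshold of 0.01 and without vehicle replicate 39. Same-numbered libraries of the count table did not deviate together in all cases (r = 0.38, 0.10, -0.03 and 0.16 for numbers 428, 702, 703 and 704). The numbers were not taken to pair them, although the study calls its vehicle controls matched without saying how. With the number as a replicate block, 7 members were higher, where 13.9% of the genes tested were, and *Bbc3* lost its call. Over all genes, DESeq2 gave 1780 higher and 1585 lower, no filter 1505 and 1495, and the fit without number 428 gave 2456 and 2418, against 1495 and 1136.

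Signs turned only for uncalled genes, at values from -0.12 (*Mdm4*) to 0.19 (*Sesn1*), both with fenamidone replicate 1 left out. With topotecan without replicates 15 and 22 these were *Btg2* (-0.0652), *Fas* (-0.0215) and *Gdf15* (-0.0351), and *Fas* without vehicle replicate 39 (-0.0141). With fenamidone, *Sesn1* was at 0.00192 after centring of libraries; leaving out a fenamidone library gave -0.26 to 0.19 for *Sesn1* and -0.12 to 0.16 for *Mdm4*. With respiratory chain inhibitors, *Sesn1* was at -0.00669 over single libraries and at -0.0146 to 0.0661 without 1 inhibitor, and *Hrk* at -0.00597 with complex I inhibitors only. With pyraclostrobin and no filter, *Sesn1* was at -0.018 and *Hrk* at -0.0400; without number 428, *Plk2* was at 0.00734 and *Hrk* at -0.0315; with numbers 428 and 702 only, *Bcl2l1* was at -0.00751. Leaving out 1 library gave -0.00543 to 0.11 for *Sesn1* and -0.0378 to 0.10 for *Hrk*. The cause was not tested for any of these.

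The alternative limited to genes with an SD above 0.1 on the log10 scale held none of the members and gave no value, and those for the sulforaphane table were not run. Alternatives on single libraries or numbers that stood apart were chosen after seeing the data. Most chemicals had 1 library, and depth in the screen is unknown.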
